A study of Homo sapiens with 7 samples.

Results

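The sulfotransferases (SULT) and UDP-glucuronosyltransferases (UGT) are described here in 769-P, a human line derived from a clear cell carcinoma of the kidney. Members were all genes whose symbol consists of SULT or UGT followed by a number, a letter group and a further number, and where a symbol stood under more than 1 Ensembl identifier the identifier with the higher mean level was kept. This gave 31 members, 10 SULT and 21 UGT genes, among 33117 listed genes. RNA sequencing libraries were made from cultured cells kept in medium with 10% fetal bovine serum, and levels are in TPM, which gives relative transcript levels corrected for length and is set to the same sum in each library. There were 2 Lat-M1 libraries, 2 Lat-M2 libraries and 3 PA libraries. All 7 are 769-P cells, and Lat-M stands for latent metastatic in the series title. Lat-M1 and Lat-M2 are named after the first of the 2 numbers on the Lat-M libraries, and what that number stands for, like the expansion of PA, is not given in the sources used here. No source says that libraries of a group came from separate cultures, so p-values measure only how these libraries vary, and that variation may be technical.

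SULT enzymes work in the cytosol and move a sulfate group from the donor PAPS onto hormones, bile acids, drugs and phenols. UGT enzymes sit in the membrane of the endoplasmic reticulum and attach glucuronic acid from UDP-glucuronic acid to the same kinds of molecule. Both reactions make the product more soluble in water, and the proximal tubule of the kidney, which also carries the transporters for such conjugates, is one of the main sites of glucuronidation outside the liver.

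Most members were barely detected. Of the 31, 13 averaged at least 1 TPM over the 7 libraries and were tested, and these were SULT1B1, SULT1E1, UGT2A3, UGT2B7 and 9 members of the UGT1A locus. The other 18 had a median level of 0.0322 TPM. Among them, 15 were listed at 0 in at least 1 library and 9 in at least 4 libraries, and 17 never exceeded 0.588 TPM. SULT1A1 was the exception and is described below. The low members include UGT2B15 and UGT2B17, which glucuronidate androgens, and UGT3A1 and UGT3A2, which use other sugars than glucuronic acid.

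Among the tested members UGT1A9 lay highest, and the 9 UGT1A members spanned 137 to 625 TPM. UGT2B7 followed at 92.3 to 153 TPM, which reached into the range of UGT1A1, the lowest UGT1A member. SULT1B1, UGT2A3 and SULT1E1 lay lower and differed most between groups, as the plot of TPM by library shows.

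**Figure D1:**
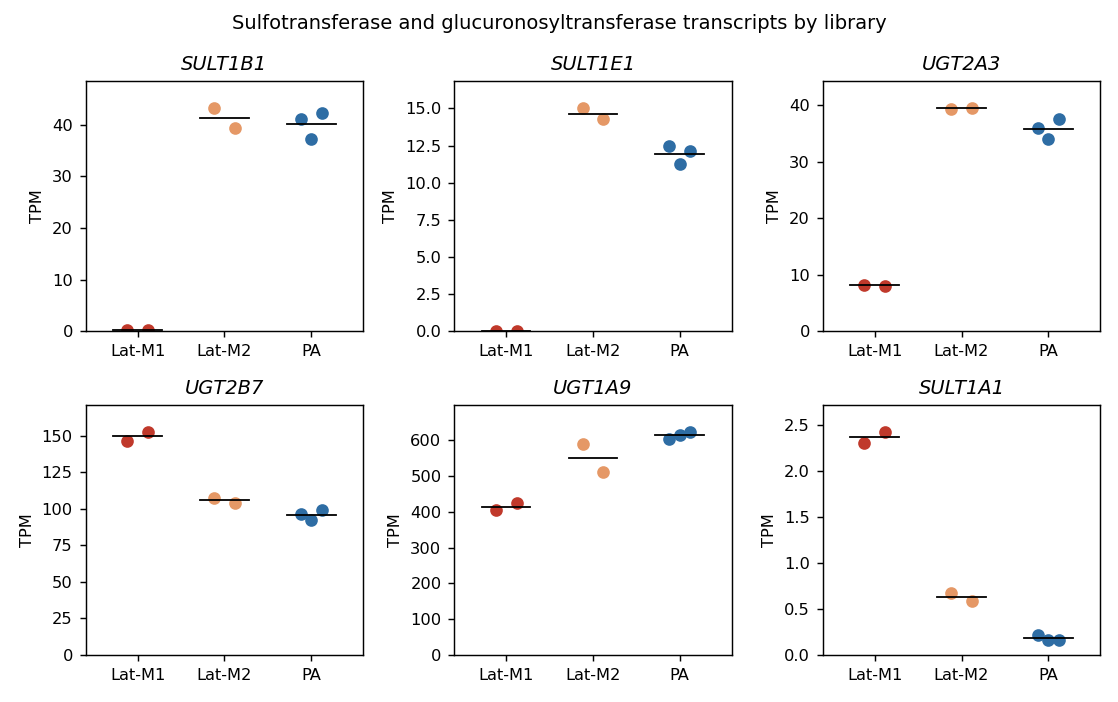
TPM in each library (points) with the group mean (line) for 6 members, in Lat-M1 (2 libraries), Lat-M2 (2 libraries) and PA (3 libraries). SULT1B1, SULT1E1 and UGT2A3 were lowest in both Lat-M1 libraries, while UGT2B7 and SULT1A1 were highest there.

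SULT1B1, UGT2A3, UGT2B7 and SULT1E1 lie in 1 gene cluster on chromosome 4, and they did not move together in Lat-M1 cells: the other 3 fell and UGT2B7 rose. Their sequences upstream of the transcript start are shown because these neighbours moved in opposite directions. Each is the 250 bases before the start in RefSeq (GRCh38.p14), read 5′ to 3′ on the strand of the gene, and capitals mark matches to a motif searched. The promoter table held 24 of the 31 members.
SULT1B1 (chr4:69760621-69760870, minus strand): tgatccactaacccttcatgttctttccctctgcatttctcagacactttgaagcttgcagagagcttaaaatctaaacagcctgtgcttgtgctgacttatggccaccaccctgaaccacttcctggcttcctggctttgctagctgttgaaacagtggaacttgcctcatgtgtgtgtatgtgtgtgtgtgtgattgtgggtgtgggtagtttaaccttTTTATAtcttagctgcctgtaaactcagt
SULT1E1 (chr4:69860146-69860395, minus strand): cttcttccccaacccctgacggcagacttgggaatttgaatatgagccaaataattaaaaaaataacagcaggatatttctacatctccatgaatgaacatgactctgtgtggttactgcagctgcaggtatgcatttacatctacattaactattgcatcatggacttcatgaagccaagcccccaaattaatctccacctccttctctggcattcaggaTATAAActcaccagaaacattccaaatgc
UGT2A3 (chr4:68951805-68952054, minus strand): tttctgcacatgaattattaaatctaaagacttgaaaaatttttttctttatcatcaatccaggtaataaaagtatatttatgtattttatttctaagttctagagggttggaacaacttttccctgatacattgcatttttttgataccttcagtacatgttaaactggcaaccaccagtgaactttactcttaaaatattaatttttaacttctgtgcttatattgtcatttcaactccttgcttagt
UGT2B7 (chr4:69096224-69096473, plus strand): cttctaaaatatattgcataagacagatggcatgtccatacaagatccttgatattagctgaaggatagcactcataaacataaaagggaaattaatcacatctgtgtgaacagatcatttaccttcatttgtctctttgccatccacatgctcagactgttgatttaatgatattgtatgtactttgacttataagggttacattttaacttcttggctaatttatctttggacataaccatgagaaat
The motifs searched on both strands were the HNF4 motif CAAAGTCCA, the xenobiotic response core GCGTG, the antioxidant response element TGACNNNGC and the TATA box TATAAA. SULT1B1 and SULT1E1 each held a TATA box match 29 bases before the start, on the strand opposite to the gene in SULT1B1, and 10.7% of 35116 promoters of the same length held 1. No other match was found in these 4 windows. The other motifs occurred in 0.325% (HNF4), 32.2% (xenobiotic core) and 10.9% (antioxidant element) of promoters. No motif contains another, and a match is a stretch of letters only.

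SULT1B1 (ENSG00000173597.4), which sulfates thyroid hormones and small phenols, was nearly absent from Lat-M1 cells. It had 0.218 and 0.186 TPM in the Lat-M1 libraries, 43.2 and 39.4 TPM in the Lat-M2 libraries and 41.0, 37.3 and 42.2 TPM in the PA libraries. Both Lat-M1 libraries lay far below all others, and Lat-M2 and PA overlapped. The means were 0.202 ± 0.0221 TPM in Lat-M1 (SD, n = 2), 41.3 ± 2.72 TPM in Lat-M2 (n = 2) and 40.2 ± 2.55 TPM in PA (n = 3), so the PA mean was 199 times the Lat-M1 mean. On the log2(TPM + 1) scale the Lat-M1 difference from PA was -5.10 ± 0.08 (SE), with an adjusted p of 6.05e-08 (limma, Benjamini-Hochberg over 16724 genes). Differences on this scale understate the fold of genes near 0. The Lat-M2 difference from PA was 0.04 ± 0.08 with an adjusted p of 0.748 and a 95% interval of -0.14 to 0.22. In bulk RNA, fewer cells with a transcript and less of it per cell cannot be told apart.

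SULT1E1 (ENSG00000109193.6) encodes the estrogen sulfotransferase, which inactivates estradiol at low concentrations of the hormone. It was listed at 0 in both Lat-M1 libraries, at 15.04 and 14.3 TPM in the Lat-M2 libraries and at 12.5, 11.3 and 12.2 TPM in the PA libraries. Both Lat-M2 libraries lay above all 3 PA libraries, with means of 14.6 ± 0.555 TPM in Lat-M2 (SD, n = 2) and 11.97 ± 0.639 TPM in PA (n = 3). The 15 housekeeping genes checked were all above 0 in every library. Being chosen as broadly expressed, they cannot show whether a rarer transcript was missed at the unknown read depth. The Lat-M1 difference from PA was -3.70 ± 0.08 (adjusted p = 2.06e-07, limma), a size that depends on the 1 added before taking logs, so no fold is given. The Lat-M2 difference from PA was 0.27 ± 0.08 with an adjusted p of 0.0709 and a 95% interval of 0.07 to 0.47, which missed the threshold.

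UGT2A3 (ENSG00000135220.6), a glucuronosyltransferase with activity on bile acids, was lower in Lat-M1 cells but still present. It had 8.18 and 8.06 TPM in the Lat-M1 libraries, 39.4 and 39.6 TPM in the Lat-M2 libraries and 35.9, 34.1 and 37.5 TPM in the PA libraries. Lat-M1 lay below PA and Lat-M2 lay above it, without overlap. The PA mean of 35.8 ± 1.72 TPM (SD, n = 3) was 4.41 times the Lat-M1 mean of 8.12 ± 0.0841 TPM (n = 2). The Lat-M1 difference from PA was -2.01 ± 0.06 (adjusted p = 7.50e-07, limma) and the Lat-M2 difference was 0.14 ± 0.06 (adjusted p = 0.165, 95% interval -0.01 to 0.28).

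UGT2B7 (ENSG00000171234.9), which glucuronidates morphine and steroid hormones, was the 1 tested member that rose in Lat-M1 cells. It had 146 and 153 TPM in the Lat-M1 libraries, 108 and 104 TPM in the Lat-M2 libraries and 96.4, 92.3 and 99.3 TPM in the PA libraries. The 3 groups did not overlap. The means were 150 ± 4.68 TPM in Lat-M1 (SD, n = 2), 106 ± 2.46 TPM in Lat-M2 (n = 2) and 96.0 ± 3.48 TPM in PA (n = 3). The Lat-M1 mean was 1.56 times the PA mean, with a difference of 0.64 ± 0.06 on the log2 scale (adjusted p = 0.000122, limma). The Lat-M2 difference from PA was 0.14 ± 0.06 (adjusted p = 0.131, 95% interval 0.01 to 0.27). The other 6 UGT2B members in the files did not exceed 0.588 TPM, and that highest value belonged to UGT2B28 in Lat-M1 replicate 2.

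Neighbouring genes of the chromosome 4 cluster differed in direction. In RefSeq order (GRCh38.p14), the 12 members of the cluster run from UGT2B17 through UGT2B15, UGT2B10, UGT2A3, UGT2B7, UGT2B11, UGT2B28, UGT2B4, UGT2A1 and UGT2A2 to SULT1B1 and SULT1E1. UGT2B7, which was higher in Lat-M1, is next to UGT2A3, which was lower. Outside the cluster, UBA6, YTHDC1, UTP3, RUFY3, GRSF1 and MOB1B were higher in Lat-M1 than in PA by 0.27 to 0.70 on the log2 scale (adjusted p = 0.000710 to 0.0123, limma), and DCK did not pass the test (0.11, adjusted p = 0.174). In this comparison 33.2% of all genes tested were called higher, and the median gene stood 0.16 above PA. The differences of the neighbours were not corrected for that shift. None of these 7 neighbours passed the test in Lat-M2 against PA (adjusted p = 0.116 to 0.866).

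**Figure D2:**
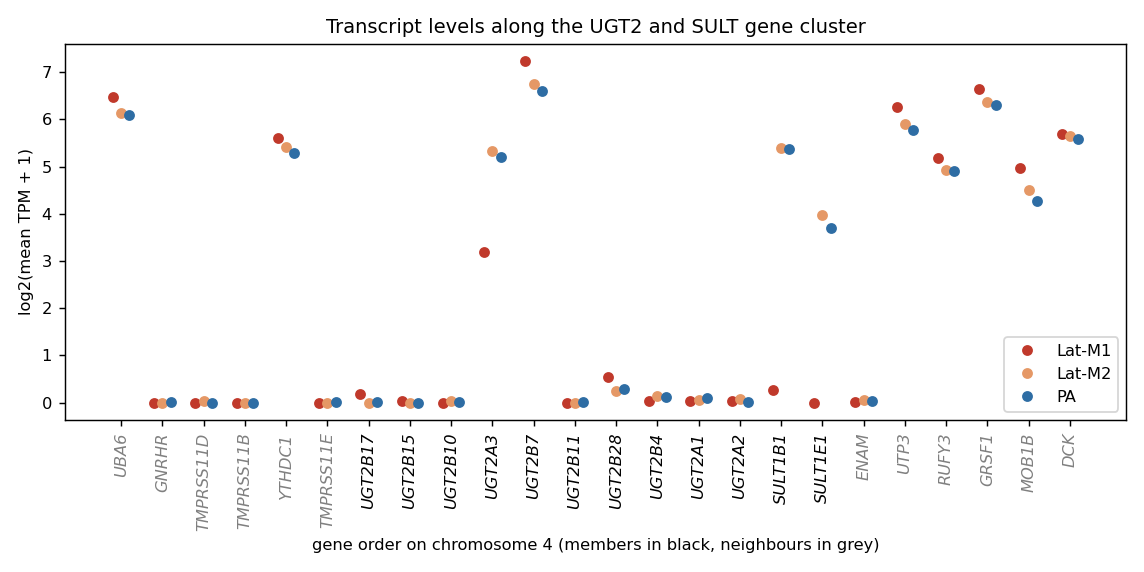
Mean transcript level as log2(mean TPM + 1) in Lat-M1, Lat-M2 and PA for the 12 members of the cluster (black names) and 6 listed protein-coding neighbours on each side (grey names), in gene order on chromosome 4. Lat-M1 lies below the other groups at UGT2A3, SULT1B1 and SULT1E1 and above them at UGT2B7 and at the expressed neighbours.

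The UGT1A locus on chromosome 2 makes its enzymes by splicing alternative first exons to the same set of common exons, so the transcripts share their 3′ part. The place where the shared letters begin is shown for 4 of the 9 members in GENCODE v29. Capitals give the first 24 bases of the longest stretch found in all 9 transcripts, and lower case gives the 24 bases before it. Exon ends were not read, so the stretch need not start exactly where the common exons start.
UGT1A1: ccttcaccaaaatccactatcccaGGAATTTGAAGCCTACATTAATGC
UGT1A3: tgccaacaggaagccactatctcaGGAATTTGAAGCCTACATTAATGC
UGT1A6: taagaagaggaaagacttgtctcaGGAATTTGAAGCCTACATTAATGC
UGT1A9: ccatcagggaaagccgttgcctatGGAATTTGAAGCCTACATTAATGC
The bases in capitals were the same in all 9 transcripts compared, and the shared stretch was 1479 bases, or 59.7% to 63.4% of each transcript of 2333 to 2479 bases. UGT1A1 is the enzyme that conjugates bilirubin, UGT1A6 conjugates small phenols, UGT1A3 conjugates bile acids among others, and UGT1A9 is a main phenol and drug UGT of the kidney.

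The 9 UGT1A values behaved as 1 measurement. Across the 7 libraries the ratio of each of the other 8 members to UGT1A9 varied by 2.70% to 4.02%. For UGT1A3, UGT1A5 and UGT1A8, which have 1 annotated transcript each, TPM multiplied by exon length differed by at most 1.02% within a library. For UGT1A9 that product was 1.34 to 1.39 times their mean. How reads from the common exons were assigned is not given in the sources used here, and the levels of single UGT1A genes cannot be told apart from the level of the shared part. A sum of the 9 could count the same reads again, so none is given, and the 9 are treated as 1 locus beside the 4 other tested members.

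**Figure D3:**
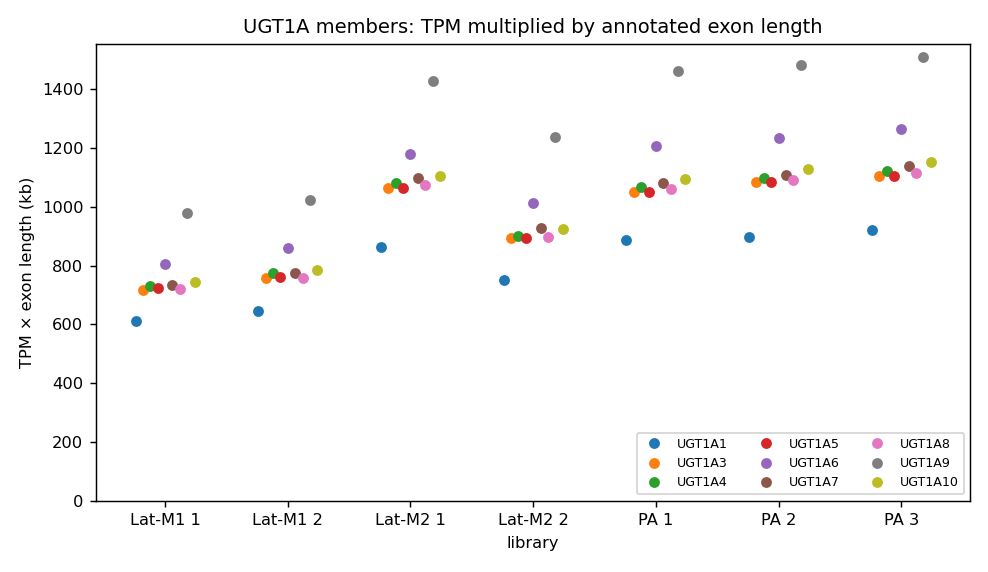
TPM multiplied by annotated exon length in kb (GENCODE v29) for the 9 UGT1A members in each of the 7 libraries. The points for UGT1A3, UGT1A5 and UGT1A8 lie at nearly the same height in every library, and all 9 members shift together, with both Lat-M1 libraries lowest.

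UGT1A transcripts were lower in Lat-M1 cells. UGT1A9 (ENSG00000241119.1) had 406 and 424 TPM in the Lat-M1 libraries, 591 and 512 TPM in the Lat-M2 libraries and 605, 614 and 625 TPM in the PA libraries. The means were 415 ± 13.2 TPM in Lat-M1 (SD, n = 2), 552 ± 55.7 TPM in Lat-M2 (n = 2) and 614 ± 9.98 TPM in PA (n = 3), and the 3 groups did not overlap for this member. UGT1A1 (ENSG00000241635.3) had 137 and 144 TPM in the Lat-M1 libraries, 193 and 168 TPM in the Lat-M2 libraries and 199, 201 and 206 TPM in the PA libraries. Lat-M2 replicate 2 was below Lat-M2 replicate 1 for both genes. All 9 members fell in Lat-M1 against PA, by 0.52 to 0.57 on the log2 scale (adjusted p = 0.000630 to 0.00157, limma), and their Lat-M1 means were 0.674 to 0.695 times the PA means. For Lat-M2 the means were 0.887 to 0.912 times the PA means, and no member passed the test (adjusted p = 0.153 to 0.273).

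The share of TPM taken by 4 structural RNAs (RN7SL1, RN7SL2, RN7SK and RMRP) moved with the groups, and it bears on every TPM value. It was 21.9% and 18.6% in Lat-M1 libraries, 22.9% and 27.7% in Lat-M2 libraries, and 31.8%, 30.3% and 29.5% in PA. The median gene stood 0.16 above PA in Lat-M1 and 0.14 above PA in Lat-M2 on the log2 scale. After each library was scaled by its median ratio to the others, these medians were near 0 and the UGT1A differences from PA were -0.74 to -0.70 in Lat-M1 and -0.33 to -0.29 in Lat-M2. With that scaling all 9 UGT1A members passed the test as lower in Lat-M2 as well (adjusted p = 0.00312 to 0.0101, limma), so whether they were lower in Lat-M2 than in PA depended on the scaling. Scaled differences of the other members in Lat-M1 were -5.20 for SULT1B1, -3.78 for SULT1E1, -2.18 for UGT2A3 and 0.46 for UGT2B7, and their calls held. In Lat-M2 the scaled differences were -0.11 for SULT1B1, 0.13 for SULT1E1, -0.01 for UGT2A3 and -0.01 for UGT2B7, and none passed the test (adjusted p = 0.231 to 0.8999).

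In Lat-M1 against PA, 12 of the 13 tested members fell and 1 rose. Of all 16724 genes tested, 11.6% were called lower and 33.2% higher in this comparison, and after scaling the shares were 23% and 24%. The median difference was -0.56 over the 13 members and -2.85 over the 4 outside UGT1A, against 0.16 over all genes. Since 9 of the 12 are 1 locus, the count amounts to UGT1A, SULT1B1, SULT1E1 and UGT2A3 lower and UGT2B7 higher. The minimum for testing was on the mean over all libraries, so SULT1B1 and SULT1E1 passed it through Lat-M2 and PA alone. SULT1A1, higher in Lat-M1, was left out at a mean of 0.931 TPM. The count and the member medians therefore lean toward lower in Lat-M1. With no minimum, 3 of the 31 members were called higher and 12 lower, beside 17.8% and 5.85% of 32367 genes. In Lat-M2 against PA no tested member was called by limma, where 2.24% of all genes were called lower and 12.7% higher. An unadjusted p under 0.05 was reached by 2 members, SULT1E1 and UGT2B7, beside 5515 of the 16724 genes. After scaling, 9 members were called lower, all of them UGT1A, beside 8.41% of all genes called lower and 7.47% higher. Both comparisons use the same 3 PA libraries.

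**Figure D4:**
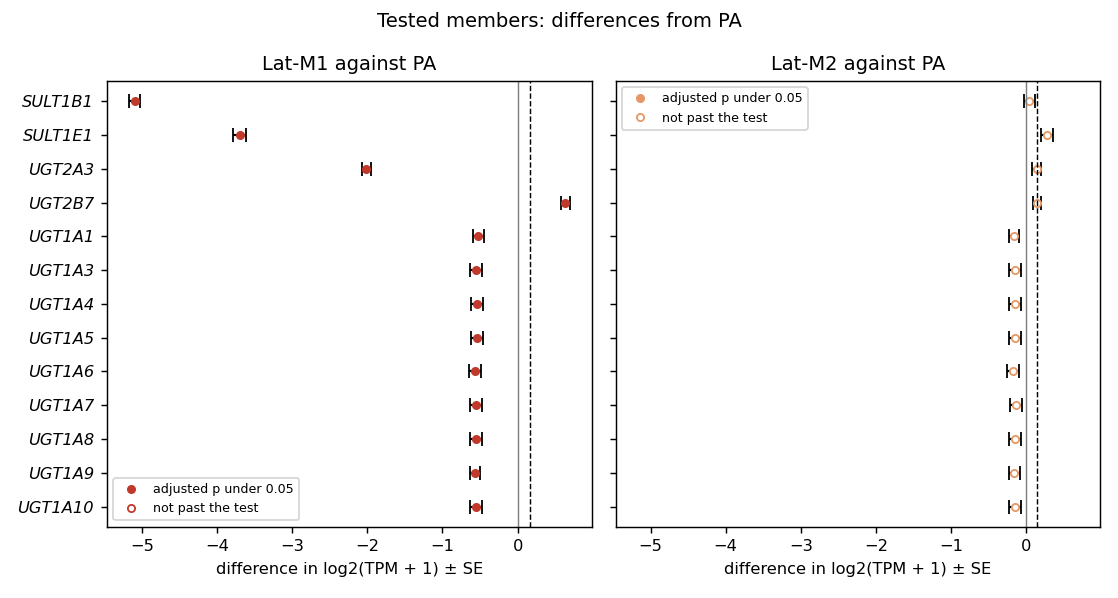
Difference in log2(TPM + 1) from PA with its SE for the 13 tested members, in Lat-M1 (left) and Lat-M2 (right), with filled points for an adjusted p under 0.05 and a dashed line at the median of all genes. The Lat-M1 differences run from -5.10 for SULT1B1 to 0.64 for UGT2B7, and all Lat-M2 points lie between -0.18 and 0.27.

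The difference between both kinds of Lat-M cells was tested directly. In Lat-M2 against Lat-M1, 12 members were higher and 1 was lower, beside 16% and 20.1% of all genes. Through the minimum for testing this count, too, leans toward lower in Lat-M1. SULT1B1 was higher in Lat-M2 by 5.14 ± 0.09 (adjusted p = 9.08e-08, limma), SULT1E1 by 3.97 ± 0.09 (adjusted p = 4.18e-07) and UGT2A3 by 2.15 ± 0.07 (adjusted p = 1.38e-06). UGT2B7 was lower, with a difference of -0.50 ± 0.06 (adjusted p = 0.000848). The 9 UGT1A members were higher by 0.36 to 0.42 (adjusted p = 0.00573 to 0.0128). Without Lat-M1 replicate 1, 8 of those 9 no longer passed (adjusted p = 0.0586 to 0.0773), UGT1A9 being the exception.

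With the 4 Lat-M libraries as 1 group, as the labels have them, no member passed limma's test against PA. An unadjusted p under 0.05 was reached by 10 members, beside 4264 of all 16724 genes tested. Those 10 are the members of the UGT1A locus and UGT2B7. Here 2.51% of all genes were called higher and 0.389% lower. The difference from PA was -2.53 ± 1.46 for SULT1B1 (adjusted p = 0.307), and its standard error holds the gap between Lat-M1 and Lat-M2. For UGT2B7, whose 4 Lat-M libraries all lay above the PA libraries, it was 0.39 ± 0.15 (adjusted p = 0.172). For UGT1A9, whose 4 Lat-M libraries all lay below, it was -0.36 ± 0.13 (adjusted p = 0.157).

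SULT1A1 (ENSG00000196502.7), the main phenol sulfotransferase of the liver and of platelets, ran the other way from SULT1B1 and SULT1E1 at a low level. It had 2.30 and 2.42 TPM in the Lat-M1 libraries, 0.670 and 0.585 TPM in the Lat-M2 libraries and 0.217, 0.163 and 0.156 TPM in the PA libraries. The 3 groups did not overlap, with Lat-M1 highest and PA lowest. The Lat-M1 mean of 2.36 ± 0.0897 TPM (SD, n = 2) was 13.2 times the PA mean of 0.179 ± 0.0332 TPM (n = 3), and the Lat-M2 mean of 0.627 ± 0.0603 TPM (n = 2) was 3.51 times it. Its mean over all libraries was 0.931 TPM, just under the minimum for testing. With no filter on low values, the Lat-M1 difference from PA was 1.51 ± 0.10 (adjusted p = 0.000295, limma over 32367 genes) and the Lat-M2 difference was 0.46 ± 0.10 (adjusted p = 0.0659). SULT1A3 and SULT1A4, near-identical copies of a dopamine sulfotransferase gene, and SULT1A2 share sequence with SULT1A1, and the sum of the 4 was 2.50 and 2.81 TPM in Lat-M1, 0.983 and 0.764 TPM in Lat-M2 and 0.260, 0.299 and 0.351 TPM in PA.

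Without the filter 1 more untested member passed in Lat-M1 against PA. UGT2B17, an androgen UGT, had 0.181 and 0.0943 TPM in Lat-M1, was listed at 0 in both Lat-M2 libraries, and was at 0, 0 and 0.0428 TPM in PA (difference 0.17, adjusted p = 0.0417, limma). UGT2B17 resembles UGT2B7 and its other relatives closely in sequence, and how shared reads were assigned is not given. In that comparison 17.8% of the 32367 genes were called higher and 5.85% lower. In Lat-M2 against Lat-M1 both SULT1A1 (-1.05, adjusted p = 0.00209) and UGT2B17 (-0.19, adjusted p = 0.0458) were lower without the filter, beside 10.8% of genes called lower and 8.02% higher.

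The 5 genes whose levels over the 7 libraries were most like those of SULT1B1, the member with the largest change, were HNF4G (Pearson's r = 0.9997 on log2(TPM + 1)), RP4-673D20.6 (0.9996), FLRT3 (0.9995), PTER (0.9994) and PPARGC1A (0.9994). HNF4G is a nuclear receptor of kidney and gut epithelium, FLRT3 a cell surface protein with leucine-rich repeats, and PPARGC1A a coactivator that raises mitochondrial gene expression. HNF4G had 14.3 and 14.6 TPM in the Lat-M1 libraries, 110 and 105 TPM in the Lat-M2 libraries and 112, 105 and 108 TPM in the PA libraries. In all 5 genes both Lat-M1 libraries were lowest, and the 7 points share the libraries and their depth, which TPM does not give. Among 16723 genes ranked by this measure, UGT2A3 came at rank 17 (r = 0.9983) and SULT1E1 at rank 19 (r = 0.9982). The UGT1A members had r of 0.915 to 0.933 and UGT2B7 -0.964. SULT1B1 was picked by its drop in Lat-M1, so any gene much lower in Lat-M1 alone ranks high, and the ranks add no separate result.

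Genes that serve conjugation were taken from 8 lists of 73 genes, of which 66 were listed and 50 tested. In Lat-M1 against PA 21 of the 50 were higher and 14 lower (18 and 21 after scaling), beside the 33.2% and 11.6% of all genes given above (24% and 23% after scaling). In Lat-M2 against PA 15 were higher and 1 lower (9 and 7 after scaling), beside 12.7% and 2.24% of all genes (7.47% and 8.41% after scaling). The number higher in Lat-M2 than in PA was 1 without Lat-M2 replicate 1 and 16 without Lat-M2 replicate 2, 8 without any 1 of the PA libraries and 11 without either Lat-M1 library. In Lat-M2 against Lat-M1 19 were higher and 18 lower, beside 16% and 20.1% of all genes. With the Lat-M libraries as 1 group, 1 was called, ABCC1 (0.65, adjusted p = 0.0477, limma), and scaling ended that call. The plot of pathway genes gives the differences of most of those named.

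The list for PAPS supply and sulfate includes genes that neither make nor move the sulfate donor PAPS. Of its 10 tested genes, 5 were higher and 2 lower in Lat-M1 than in PA (4 and 3 after scaling). The 2 lower were BPNT1 (-0.35, adjusted p = 0.00337, limma) and SLC26A1 (-1.09, adjusted p = 0.00913), and both calls held after scaling. PAPSS2, which makes PAPS from sulfate and ATP, rose to 29.8 ± 1.75 TPM in Lat-M1 (SD, n = 2), with 17.8 ± 1.41 TPM in Lat-M2 (n = 2) and 12.1 ± 1.25 TPM in PA (n = 3). The difference from PA was 1.24 ± 0.10 in Lat-M1 (adjusted p = 7.27e-05, limma) and 0.52 ± 0.10 in Lat-M2 (adjusted p = 0.0174), and the Lat-M2 call was lost without Lat-M2 replicate 1 (adjusted p = 0.112). Its paralog PAPSS1 averaged 33.3 TPM in Lat-M1, 38.6 TPM in Lat-M2 and 35.5 TPM in PA (Lat-M1 against PA -0.09, adjusted p = 0.369, but -0.26 and 0.0144 after scaling). The Golgi PAPS transporter SLC35B3 averaged 68.7 TPM in Lat-M1, 37.7 TPM in Lat-M2 and 35.5 TPM in PA (0.93 in Lat-M1, adjusted p = 3.45e-05). IMPAD1, a Golgi phosphatase that clears the by-product of sulfation, was higher in Lat-M1 by 0.51 (adjusted p = 0.000891). SLC35B2, the other Golgi PAPS transporter, was higher by 0.36 (adjusted p = 0.00180), a call that scaling ended (adjusted p = 0.0851).

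Of the 4 genes listed for UDP-glucuronic acid supply, none rose and only SLC35D2 fell in Lat-M1, with and without scaling. UGDH, UGP2 and SLC35D1 passed neither way there. In Lat-M2 2 of the 4 rose (1 after scaling, when 2 fell). UGDH, which makes UDP-glucuronic acid, averaged 292 ± 16.7 TPM in Lat-M1, 326 ± 28.2 TPM in Lat-M2 and 257 ± 11.98 TPM in PA (SD, n = 2, 2 and 3). In Lat-M2 it was higher than in PA by 0.34 (adjusted p = 0.0294, limma), which scaling ended (adjusted p = 0.0511), as did leaving out Lat-M2 replicate 1 or any 1 of the PA libraries (adjusted p = 0.0513 to 0.133). UGP2, which makes its precursor UDP-glucose, averaged 47.8 TPM in Lat-M1, 43.0 TPM in Lat-M2 and 44.2 TPM in PA and passed no test as deposited. SLC35D1, which carries UDP-glucuronic acid into the endoplasmic reticulum, was higher in Lat-M2 than in PA by 0.35 (adjusted p = 0.0168), and the call was lost without Lat-M2 replicate 1 or PA replicate 2. SLC35D2, a Golgi nucleotide sugar carrier, fell by 0.51 in Lat-M1 (adjusted p = 0.000425).

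Among enzymes that remove sulfate or glucuronic acid, 4 of 6 tested were higher in Lat-M1 and none lower as deposited, and 4 were higher and 2 lower after scaling. The 4 were STS, the steroid sulfatase (7.68 TPM in Lat-M1, 4.66 TPM in Lat-M2 and 3.55 TPM in PA; 0.93 in Lat-M1 against PA, adjusted p = 0.000369, limma), ARSA (0.99, adjusted p = 0.00559), ARSB (0.79, adjusted p = 0.000253) and ARSE (0.62, adjusted p = 0.00102). ARSA and ARSB are lysosomal sulfatases and ARSE is a Golgi sulfatase. The 2 that passed as lower in Lat-M1 after scaling only were GUSB, the enzyme that removes glucuronic acid (-0.15, adjusted p = 0.0422), and ARSD, a sulfatase relative (-0.25, adjusted p = 0.0108). In Lat-M2 against PA none of the 6 passed as deposited, and GUSB passed as lower after scaling (-0.22, adjusted p = 0.0295).

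Of the pumps that export conjugates, 2 of 5 tested rose and 1 fell in Lat-M1 (1 and 3 after scaling), while 3 rose and none fell in Lat-M2 (2 and 1 after scaling). ABCC2, the apical pump for glucuronides, averaged 63.0 ± 2.90 TPM in Lat-M1, 142 ± 6.47 TPM in Lat-M2 and 155 ± 4.57 TPM in PA (SD, n = 2, 2 and 3), a Lat-M1 difference of -1.29 ± 0.06 (adjusted p = 5.79e-06, limma). In Lat-M2 ABCC2 did not pass as deposited (-0.13, adjusted p = 0.189) and passed as lower after scaling (-0.28, adjusted p = 0.00233). ABCC1, a basolateral pump, was higher by 0.84 in Lat-M1 (adjusted p = 0.000139) and by 0.47 in Lat-M2 (adjusted p = 0.0119, but 0.0645 without Lat-M2 replicate 1). ABCC4 averaged 168 TPM in Lat-M1, 232 TPM in Lat-M2 and 185 TPM in PA. It rose in Lat-M2 by 0.32 (adjusted p = 0.0141, but 0.0541 without Lat-M2 replicate 1) and did not pass in Lat-M1 as deposited (-0.14, adjusted p = 0.0850), where it passed as lower after scaling (-0.31, adjusted p = 0.000918). ABCC3, a basolateral pump for glucuronides, rose in Lat-M2 by 0.29 (adjusted p = 0.0295), which scaling ended (adjusted p = 0.129), and in Lat-M1 it passed only after scaling, as lower (-0.21, adjusted p = 0.0223). ABCC3, like BPNT1, SLC26A1, GUSB and ARSD, was named after its values were seen. ABCC5 was higher in Lat-M1 by 0.32 (adjusted p = 0.00700), which scaling (adjusted p = 0.0515) and leaving out Lat-M1 replicate 1 (adjusted p = 0.0510) ended.

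Of the uptake carriers for conjugates and organic anions, 3 of 4 tested fell in Lat-M1 and 1 rose, with and without scaling. SLCO1B1, a carrier best known from the liver, averaged 0.237 TPM in Lat-M1, 7.68 TPM in Lat-M2 and 2.12 TPM in PA, with a difference from PA of -1.33 in Lat-M1 (adjusted p = 0.000242, limma) and of 1.48 in Lat-M2 (adjusted p = 0.00111). SLCO4C1, a carrier of the proximal tubule, averaged 13.8 TPM in Lat-M1, 47.5 TPM in Lat-M2 and 34.5 TPM in PA (-1.26 in Lat-M1, adjusted p = 1.50e-05). In Lat-M2 it was higher than in PA by 0.45 (adjusted p = 0.0113, but 0.0558 without Lat-M2 replicate 1). SLCO4A1 fell by 1.09 in Lat-M1 (adjusted p = 0.000206) and SLCO3A1 rose by 0.51 (adjusted p = 0.0154, but 0.0878 and 0.0762 without Lat-M1 replicate 1 or 2).

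Transcription factors known to control these families moved in both directions, 3 of 10 tested higher and 4 lower in Lat-M1 (3 and 5 after scaling), and 3 higher and none lower in Lat-M2 (2 and 2 after scaling, the 2 lower being PPARG and NR1H4). PPARD, a fatty acid receptor, averaged 34.8 TPM in Lat-M1, 4.62 TPM in Lat-M2 and 2.55 TPM in PA (3.33 in Lat-M1, limma, adjusted p = 5.75e-07, and 0.66 in Lat-M2, adjusted p = 0.00773, or 0.0622 without Lat-M2 replicate 1). PPARG fell by 0.86 in Lat-M1 (adjusted p = 6.46e-05), and NR1H4, the bile acid receptor, averaged 0.0136 TPM in Lat-M1, 1.30 TPM in Lat-M2 and 2.32 TPM in PA (-1.71 in Lat-M1, adjusted p = 0.000199). AHR, the dioxin receptor, fell by 0.46 in Lat-M1 (adjusted p = 0.00254), and NFE2L2, the regulator of the antioxidant response, rose by 0.47 (adjusted p = 0.00272). HNF4A never exceeded 0.0531 TPM and was not tested, and NR1I2 was not analysed here.

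Related transferases outside the symbol pattern behaved unlike each other. UGT8, which builds galactosylceramide, rose in Lat-M1 by 0.50 (adjusted p = 0.000737, limma), and TPST1 and TPST2, which sulfate tyrosines of secreted proteins, rose by 0.98 (adjusted p = 9.69e-05) and 0.84 (adjusted p = 0.000265). GAL3ST1, which sulfates galactosylceramide, averaged 3.66 TPM in Lat-M1, 13.3 TPM in Lat-M2 and 8.15 TPM in PA (-0.97 in Lat-M1, adjusted p = 0.00176). In Lat-M2 against PA, UGT8 (0.28, adjusted p = 0.0320) and GAL3ST1 (0.65, adjusted p = 0.0314) were called higher and TPST1 lower (-0.34, adjusted p = 0.0350). Scaling ended the UGT8 and GAL3ST1 calls, and leaving out Lat-M2 replicate 1, among other libraries, ended all 3 (adjusted p = 0.130, 0.189 and 0.138).

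Of the oxidising and other enzymes that act before or beside conjugation, 3 of 7 tested rose and 2 fell in Lat-M1 (2 and 3 after scaling). NQO1, a quinone reductase, averaged 349 TPM in Lat-M1, 262 TPM in Lat-M2 and 232 TPM in PA (0.59 in Lat-M1, adjusted p = 0.000608, limma). AKR1C3, a steroid reductase, fell by 0.36 in Lat-M1 (adjusted p = 0.00103) and was called higher in Lat-M2 by 0.18 (adjusted p = 0.0496), a call lost after scaling (adjusted p = 0.712) and in 6 of 7 fits that left out a library. CYP3A5, a drug-oxidising enzyme, averaged 2.13 TPM in Lat-M1, 3.40 TPM in Lat-M2 and 1.39 TPM in PA. It was higher in Lat-M2 by 0.88 (adjusted p = 0.00773, but 0.0582 without Lat-M2 replicate 1), and its Lat-M1 call (0.39, adjusted p = 0.0377) was lost in all 7 fits that left out a library (adjusted p = 0.0530 to 0.160).

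**Figure D5:**
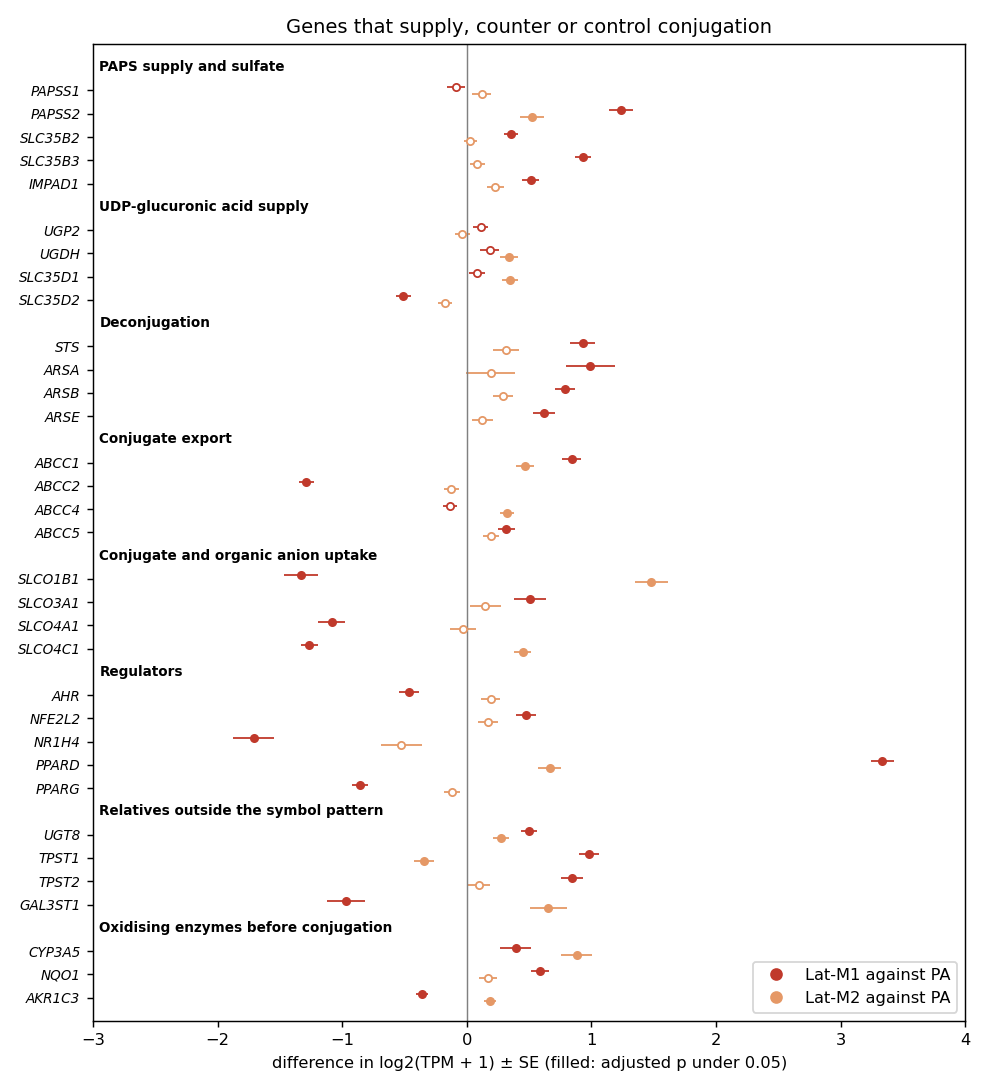
Difference in log2(TPM + 1) from PA with its SE for most of the named genes that supply, counter or control conjugation, in Lat-M1 (red) and Lat-M2 (orange), filled where the adjusted p was under 0.05. In Lat-M1 the values run from -1.71 for NR1H4 to 3.33 for PPARD, and in Lat-M2 the highest value is 1.48 for SLCO1B1.

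Renal markers were found in every library, with PAX8 at 65.6 to 87.9 TPM. Of the 9 renal markers 7 averaged at least 1 TPM, as did 16724 of all 33117 listed genes. PAX2 averaged 0.991 TPM, and CA9 did not exceed 0.156 TPM. Endothelial and leukocyte lists summed to at most 0.0853 and 0.328 TPM. The intestinal list summed to 0.224 and 0.278 TPM in Lat-M1, 5.61 and 5.54 TPM in Lat-M2 and 1.96, 2.18 and 1.96 TPM in PA, nearly all of it LGALS4. The hepatocyte list summed to 43.7 and 45.6 TPM in Lat-M1, 34.7 and 32.0 TPM in Lat-M2 and 72.0, 68.4 and 71.4 TPM in PA, from SERPINA1 and FGB, with ALB at most 0.0516 TPM. The fibroblast list summed to 20.0 and 21.7 TPM in Lat-M1, 4.09 and 3.10 TPM in Lat-M2 and 1.41, 1.76 and 1.63 TPM in PA, from COL1A1, with 4 of its 6 genes under 0.1 TPM in every library. The intestinal, hepatocyte and fibroblast sums differed between the 3 groups without overlap, with the hepatocyte sum lowest in Lat-M2. Any part of these sums in the changes of the members was not tested.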

How the data were processed

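Total RNA of 769-P cells was sequenced in 7 libraries after library preparation with a TruSeq or NEBNext Ultra kit, per the labels' protocols, and which library used which kit is not given. Per the submitters' processing notes, reads were handled with TopHat2 2.2.4 against hg19; quantifier, annotation and filters are not given in the sources used here. The deposited files hold TPM per gene, summing to 1e+06 per library, so read depth, counting intervals and floors are unknown. Genes with at least 1 TPM numbered 16136 to 16872 per library.

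From these values log2(TPM + 1) was tested with limma 3.58.1 in R 4.3.3 (trend and robust options, genes averaging 1 TPM or more, Benjamini-Hochberg adjusted p under 0.05 over all genes tested). Lat-M1, Lat-M2 and PA entered 1 fit with a shared spread, and Lat-M against PA a fit of 2 groups. The procedure was tested on simulated data. Tables were handled with Python 3.11.15 and pandas 2.3.3. Members and gene lists were chosen with earlier results of these data known. All tested members are given; of each pathway list up to 4 tested genes with the smallest p in the fit of 3 groups were named, plus AHR, HNF4A, NR1I2, NFE2L2, UGDH, UGP2, PAPSS1 and PAPSS2, and the 5 genes most correlated with the member of largest change. Gene order, promoters and transcripts come from RefSeq GRCh38.p14 and GENCODE v29, another build than hg19, so no positions were read from the authors' values. Protein sequences were not used here, and some results are not reported here.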

Additional observations from a re-analysis of the deposited data

Results flagged for a closer look

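All 13 tested members differed between Lat-M2 and Lat-M1 cells by limma's test, beside 16% of all genes called higher in Lat-M2 and 20.1% lower. For these members the difference from PA was therefore not the same in both kinds of Lat-M cells. SULT1B1 and SULT1E1 passed the minimum for testing through Lat-M2 and PA alone, so the count leans toward lower in Lat-M1. On the log2(TPM + 1) scale, Lat-M2 minus Lat-M1, the values were 5.14 for SULT1B1, 3.97 for SULT1E1, 2.15 for UGT2A3 and -0.50 for UGT2B7. Within the UGT1A locus they were 0.41 for UGT1A9 and UGT1A8, 0.42 for UGT1A7, 0.40 for UGT1A3 and UGT1A10, 0.39 for UGT1A4, UGT1A5 and UGT1A6, and 0.36 for UGT1A1, which are not 9 separate results because the transcripts share their common exons. The value of SULT1E1 depends on the 1 added before taking logs, since both Lat-M1 libraries were listed at 0. Among the 4 Lat-M libraries taken as 1 group, no member had a single library standing apart from the other 3. Because the Lat-M1 and Lat-M2 pairs differed for every tested member, that rule could hardly flag a single library. It therefore says nothing about single libraries. No cause of these differences was tested.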

How the results depend on the processing

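In Lat-M1 against PA every tested member kept its direction and its call under a pseudocount of 0.1, no filter, a minimum mean of 5 TPM, scaling, the replicate block and each library left out. With at least a 2-fold change required, 0 members were higher and 3 lower in Lat-M1 than in PA, and 3 were higher and 0 lower in Lat-M2 than in Lat-M1. The 3 were SULT1B1, SULT1E1 and UGT2A3, of which SULT1B1 and SULT1E1 passed the minimum for testing through Lat-M2 and PA alone. The share of all genes at that fold was not counted, so these counts have no background to be read against. With no filter on low values, 3 were higher in Lat-M1 than in PA and 3 lower in Lat-M2 than in Lat-M1. Scaling made 9 members lower in Lat-M2 than in PA. Leaving out single libraries left 4 to 12 members higher in Lat-M2 than in Lat-M1, with 4 without Lat-M1 replicate 1, and did not move the other member counts. A contrast of Lat-M with PA inside the fit of 3 groups called 1 member higher and 12 lower, where the fit of 2 groups called none; its spread leaves out the gap between Lat-M1 and Lat-M2. Some small Lat-M2 differences from PA turned negative: SULT1B1 to -0.11 on scaling, and across fits without 1 library, whose range was -0.025 (without Lat-M2 replicate 1) to 0.106 and was also negative without PA replicate 2, and UGT2A3 to -0.0137 and UGT2B7 to -0.0121 on scaling. On scaling SLC35D1 turned to -0.0876 and UGP2 to -0.0638 in Lat-M1 against PA. Same-numbered libraries did not deviate together (correlations -0.0820 to 0.0312). With the replicate block, 13, 0, 13 and 0 members were called in Lat-M1 against PA, Lat-M2 against PA, Lat-M2 against Lat-M1 and Lat-M against PA, as without it, and over all genes 5908, 943, 4795 and 0 were called against 7499, 2494, 6022 and 485 (where limma called 0, the unadjusted p was under 0.05 for 2060 genes). The count of pathway genes higher in Lat-M2 than in PA was 15, 6 with the block, 9 with no filter and 1 to 16 with single libraries left out, and the 1 lower was called in 1 of those 7 fits. These pathway alternatives were added after seeing the data. TPM keeps no depth, so the precision of members near 0 is unknown.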

Other observations

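UGT1A2P, a pseudogene in the UGT1A locus that is no member, had 14.8 and 14.7 TPM in the Lat-M1 libraries, 9.21 and 11.0 TPM in the Lat-M2 libraries and 11.5, 10.0 and 12.5 TPM in the PA libraries. Both Lat-M1 libraries lay above the others, whereas they were the lowest for the 9 UGT1A members. Lat-M2 and PA overlapped. The difference was not tested. The excess of UGT1A9 over the mean of UGT1A3, UGT1A5 and UGT1A8, as TPM multiplied by exon length in kb, was 259 and 267 in the Lat-M1 libraries, 360 and 342 in the Lat-M2 libraries and 406, 396 and 401 in PA, without overlap between the groups. An excess of this kind shrinks when the whole locus falls. As a ratio to the same mean, UGT1A9 ran from 1.34 (Lat-M2 replicate 1) to 1.39 (PA replicate 1), and the groups overlapped. Both Lat-M1 values (1.36 and 1.35) and those of PA replicates 2 and 3 (1.36 each) lay between the Lat-M2 values, 1.34 and 1.38. The excess is therefore not a separate result for UGT1A9. How the authors assigned reads of the common exons is not given in the sources used here.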
